A study of Mus musculus with 36 samples.

Results

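Induced nephron progenitors (iNP) were compared with induced stromal progenitors (iSP), with 4 libraries of each, so that the comparison used 8 of the 36 libraries in the series. Both cell types came from the E14 mouse embryonic stem (ES) cell line, with no transgene or mutation named in the labels. Embryoid bodies were taken through a single differentiation schedule with Activin A, the Wnt agonist CHIR99021, BMP4, retinoic acid and FGF9, and the same cultures gave both progenitors at the sort: iNP as ITGA8 high/PDGFRA low cells and iSP as ITGA8 low/PDGFRA high cells. Antibodies against RET, EpCAM and CD31 were used to gate out ureteric bud and endothelial cells. The embryonic references were nephron progenitors (NP) and stromal progenitors (SP) sorted the same way from kidneys of CD1 mice at E11.5 and at E12.5, called ex-fetu cells here, again with 4 libraries of each. An ES-derived library held pooled embryoid bodies of 1 differentiation batch, and an ex-fetu library held pooled kidneys from the embryos of 1 mouse. All ES-derived cells came from 1 line, so spread between lines was not measured, and ES origin cannot be told apart from the difference in strain between E14 cells and CD1 mice.

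In the developing kidney, nephron progenitors surround the tips of the branching ureteric bud. Under the transcription factor SIX2 they renew themselves, and under Wnt and Notch signals they leave the pool, turn into epithelium and build the nephron. Stromal progenitors lie outside them, are marked by the transcription factor FOXD1, give rise to interstitial and mural cells, and send retinoic acid and other signals to the neighbouring nephron progenitors and bud. Both lineages belong to mesoderm, and the genes that separate them in the embryo are transcription factors, secreted signals, and matrix proteins of the connective tissue type.

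Values are normalised CPM (the read counts of a library scaled to its size and by its normalisation factor), so a gene can be compared between libraries, while levels of different genes cannot be compared because they are not per length. A difference is the mean log2(value + 1) of the nephron progenitors minus that of the stromal progenitors, and a gene was called at a Benjamini-Hochberg adjusted p under 0.05 in limma. A fold is a ratio of group mean values. The iNP libraries held 27.1 to 42.3 M reads (M, mega), the iSP libraries 21.0 to 29.4 M reads and the ex-fetu libraries 18.6 to 52.5 M reads. A level of 3 reads was thus worth 0.0683 to 0.145 in an ES-derived library. The library iNP-2 stood apart from the other iNP libraries. Its root mean square deviation from the iNP mean was 0.43 on the log2 scale against 0.17 to 0.19, and ribosomal protein genes took 10.1% of its reads against at most 6.40% in the others. Its deviations also ran with exon length across genes (r = -0.62). Weaker negative relations were seen in other libraries, such as iSP-1 (r = -0.44) and E11.5 SP-4 (r = -0.34). In E12.5 NP-1 and E12.5 SP-1 the heat shock genes Hspa1a and Hspa1b summed to 483 and 1234, against at most 3.76 and 18.1 in the other libraries of their groups. E12.5 NP-1, NP-2 and SP-1 deviated from their group means by 0.41, 0.40 and 0.45, and the other E12.5 libraries by 0.20 to 0.28. E11.5 SP-4 deviated by 0.37, against 0.19 to 0.27 in the other E11.5 SP libraries. Where iNP-2 or any of the E12.5 libraries named here changed a named gene's call between iNP and iSP or moved a printed mean by more than 1.5 times, the value without it is given as well.

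Markers of the sort and of the lineages were examined first. Six2 (ENSMUSG00000024134; GRCm38 chromosome 17, 85684277 to 85688274, minus strand, protein coding) had 116, 141, 147 and 152 normalised CPM in the iNP libraries and 16.3, 13, 12 and 12.3 in the iSP libraries. All iNP libraries lay above all iSP libraries, as was so in one direction or the other for 37.6% of the 14052 genes tested, and the means differed 10.4-fold (log2 difference 3.28 ± 0.12 SE, limma adjusted p = 2.75e-07). Foxd1 (ENSMUSG00000078302; GRCm38 chromosome 13, 98354242 to 98359305, plus strand, protein coding) had 8.86, 7.02, 6.38 and 6.05 in iNP and 11.4, 19.2, 17.3 and 12.9 in iSP. These did not overlap either, and the mean was 2.15-fold higher in iSP (log2 difference -0.99 ± 0.18 SE, limma adjusted p = 0.00212).

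The labels' direction therefore held for both genes, but the Foxd1 level did not approach that of the embryo. The Foxd1 mean of 15.2 in iSP stood below the 62.8 of E11.5 NP and 49.6 of E12.5 NP, and far below the 410 and 668 of E11.5 and E12.5 SP. Six2 averaged 139 in iNP against 590 and 591 in E11.5 and E12.5 NP. The sort used the proteins of Itga8 and Pdgfra, so their transcripts only check the gate: Itga8 averaged 182 in iNP and 58.1 in iSP, and Pdgfra 31.6 in iNP and 410 in iSP. Itga8 in iNP-2 was 75.5, while the other iNP libraries held 210 to 230.

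**Figure D1:**
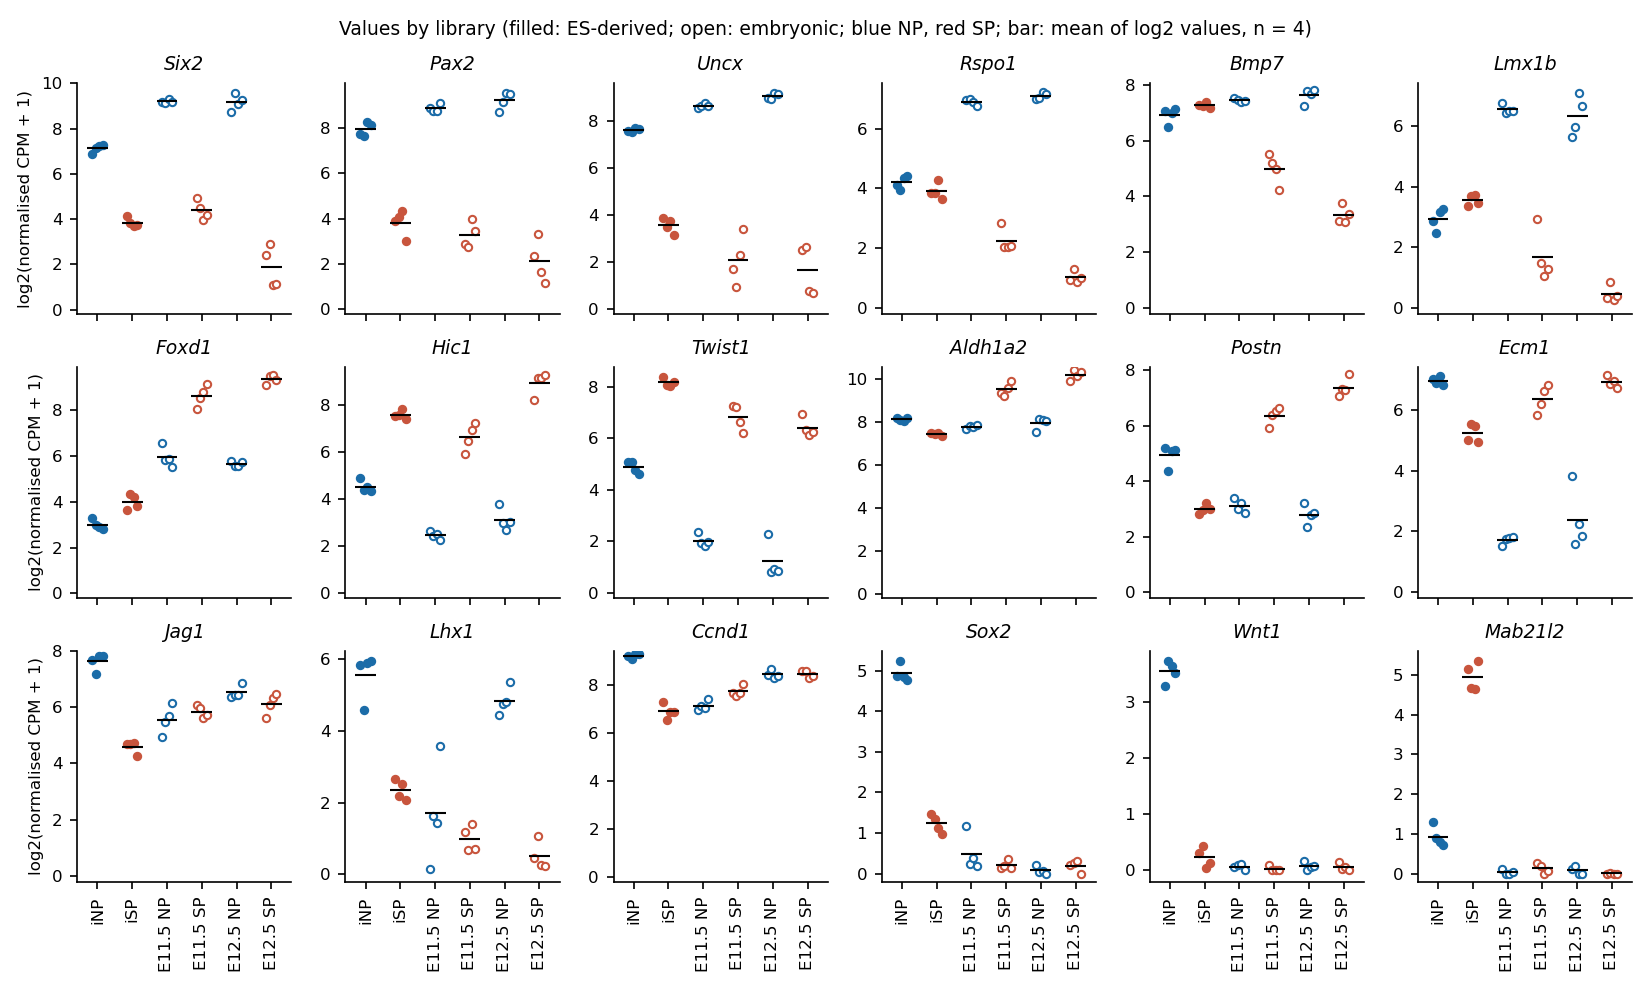
Levels of 18 named genes in each library, as log2(normalised CPM + 1) on the vertical axis of each panel, for iNP, iSP and ex-fetu NP and SP at E11.5 and E12.5; each point is a library (filled, ES-derived; open, ex-fetu) and each bar is the mean of 4. Six2 and Pax2 separate iNP from iSP as they separate NP from SP, Rspo1 and Lmx1b do so only in the ex-fetu pairs, and Aldh1a2, Postn and Ecm1 are higher in iNP but lower in NP.

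Of 14052 genes that reached a value of 1 in at least 4 of the 8 ES-derived libraries, 4320 (30.7%) were called between iNP and iSP, 2320 (16.5%) higher in iNP and 2000 (14.2%) higher in iSP. Among those, 1322 (9.41%) also differed by at least 1 on the log2 scale, 851 (6.06%) higher in iNP and 471 (3.35%) higher in iSP. Without iNP-2 the count was 5983, with 4005 of the 4320 genes among them. The same test called 5891 of 13655 genes (43.1%) between E11.5 NP and SP, 21% higher in NP and 22.2% higher in SP, and 4789 of 13772 (34.8%) between E12.5 NP and SP, 17% and 17.8%. The side with more called genes turned with the scaling: after quantile normalisation 2198 genes were higher in iNP and 2263 in iSP, 3586 in E11.5 NP and 2683 in SP, and 2846 in E12.5 NP and 2304 in SP. The E12.5 pairs shared a replicate structure, and with the replicate block the E12.5 count was 7961. The median absolute difference over genes was 0.24 between iNP and iSP, 0.32 between E11.5 NP and SP, and 0.35 between E12.5 NP and SP.

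To say which embryonic differences were kept, a reference set was formed from the E12.5 libraries alone. It held the 2329 genes (16.9% of those tested) that were called there with a log2 difference of at least 1, 858 (6.23%) higher in NP and 1471 (10.7%) higher in SP. A gene was counted as kept when iNP and iSP were called in the same direction. It was opposite when they were called in the other direction. It was lost when they were not called, or not tested for low values, while the change of the difference between the ES-derived and the E11.5 cells was itself called and the E11.5 difference ran the E12.5 way and was the larger. The remaining genes were undecided. The iNP versus iSP, E11.5 and E12.5 comparisons share no libraries. The change of the difference was called for 4344 of 14846 genes (29.3%), 2583 (17.4%) positive and 1761 (11.9%) negative; after quantile normalisation the split was 2128 positive and 2364 negative.

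The kept share was 65.9% for genes of the nephron progenitor side and 43.3% for genes of the stromal side. Of the 858 genes higher in E12.5 NP, 565 (65.9%) were kept, 159 (18.5%) lost, 29 (3.38%) opposite and 105 (12.2%) undecided. Among the 1471 genes higher in E12.5 SP, 637 (43.3%) were kept, 430 (29.2%) lost, 202 (13.7%) opposite and 202 undecided. The background share of all tested genes called higher in iNP was 16.5%, and that called higher in iSP was 14.2%. At E11.5, which the reference set did not use, 691 of the 858 (80.5%) and 1283 of the 1471 (87.2%) were called in the E12.5 direction, beside 21% and 22.2% of all genes tested there. Thus the SP-higher genes had the larger share called in E11.5 cells and the smaller share kept in ES-derived cells. The difference between the kept shares was not tested, because genes are not independent replicates. With no minimum size for the reference set the kept shares were 40.7% of the NP-higher genes and 37.1% of the SP-higher genes. The same order of the kept shares was seen without iNP-2, at 65.9% and 47.7%. The opposite share of the SP-higher genes rose to 21.1% when iNP-2 and both E12.5 libraries numbered 1 were left out, a setting chosen after seeing the data.

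The kept share was higher in each larger class of embryonic difference. Of the NP-higher genes, 352 of 588 (59.9%) with an E12.5 log2 difference of 1 to 2 were kept, 134 of 178 (75.3%) with 2 to 3, and 79 of 92 (85.9%) with 3 or more. For the SP-higher genes these were 364 of 934 (39.0%), 147 of 322 (45.7%) and 126 of 215 (58.6%). Kept genes of the NP side had a median difference of 1.68 at E12.5, 1.17 at E11.5 and 1.24 between iNP and iSP. On the SP side the medians of the kept genes were -1.81, -1.54 and -0.94. Kept does not mean of embryonic size: 132 of the 565 kept NP-higher genes and 268 of the 637 kept SP-higher genes had a called change toward a smaller difference than at E11.5, and 116 and 35 toward a larger one.

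The medians of the lost genes follow from how the class is defined, since it asks for a larger E11.5 difference and no call between iNP and iSP. The 159 lost NP-higher genes had medians of 1.47 at E12.5, 1.24 at E11.5 and 0.09 between iNP and iSP, the last over the 112 of them that were tested there. The 430 lost SP-higher genes had medians of -1.66, -1.46 and -0.03, the last over 337 tested. The rest, 47 and 93 genes, were too low in both iNP and iSP to be tested. The opposite SP-higher genes had a median of -1.72 at E12.5 and 0.83 between iNP and iSP, and 175 of the 202 were also called higher in SP at E11.5.

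**Figure D2:**
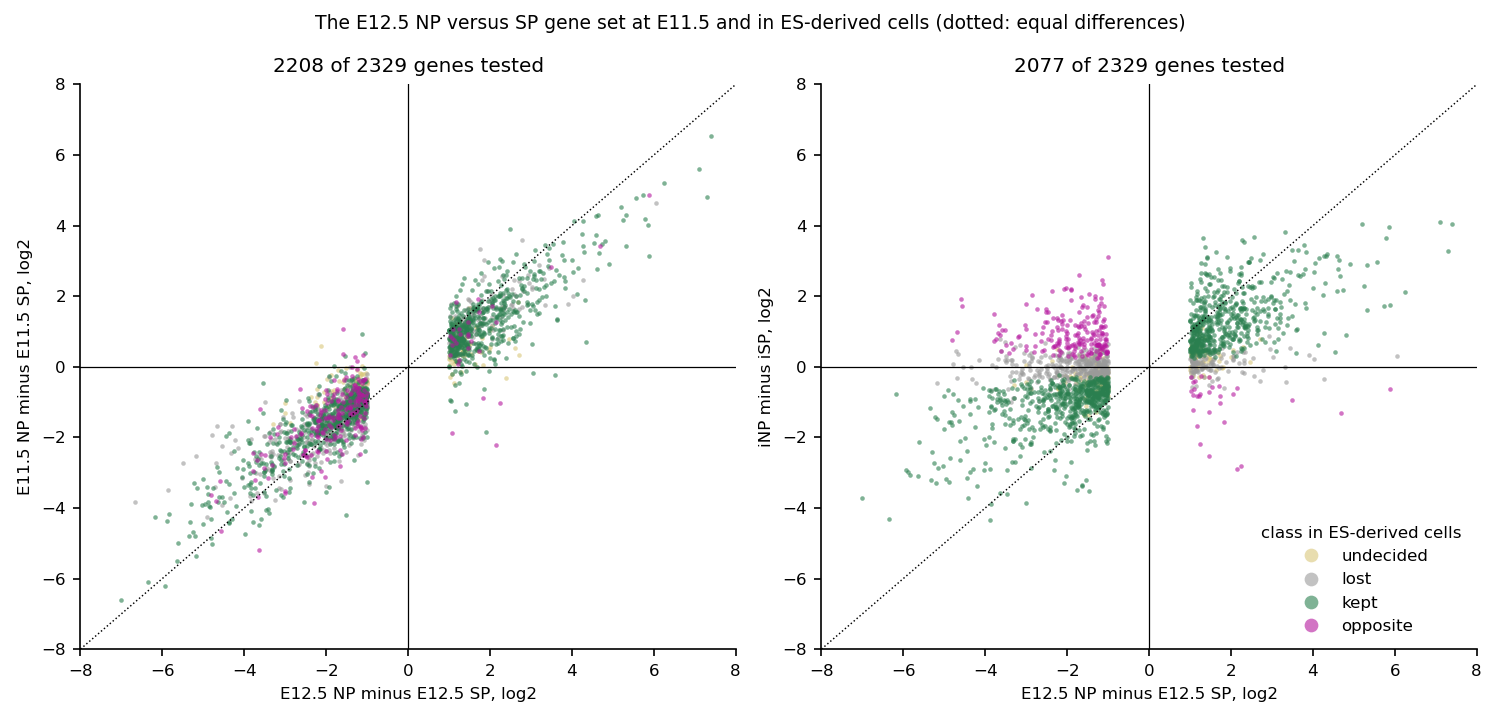
Log2 differences (NP minus SP) of the reference set genes at E12.5 on the horizontal axis, against the E11.5 difference (831 of 858 NP-higher and 1377 of 1471 SP-higher genes tested) and the iNP minus iSP difference (774 and 1303 tested) on the vertical axes; each point is a gene, coloured by class, and the dotted line marks equal differences. The E11.5 points run along the line, while among the iNP minus iSP points the lost genes form a band near 0, and 202 of the opposite genes lie on the SP-higher side against 29 on the NP-higher side.

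**Figure D3:**
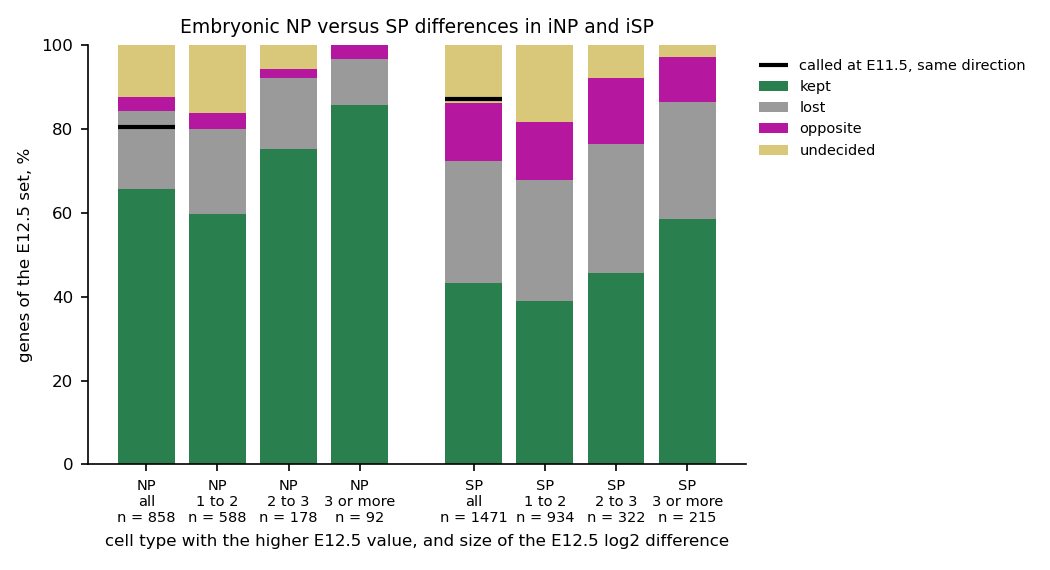
Share of the reference set genes in each class (percent, vertical axis), split by the lineage in which the gene was higher at E12.5 and by the size of the E12.5 log2 difference; the black bar is the share called in the same direction at E11.5. The kept share grows with size from 59.9% to 85.9% on the NP side and from 39.0% to 58.6% on the SP side.

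The nephron progenitor identity list, the transcription factors and signals that define the cap mesenchyme, was split between kept and lost members. The median difference over the 25 tested members was 0.87, beside 0.00 over all genes. Of them, 15 were called higher in iNP, 5 higher in iSP and 5 were not called, beside 16.5% and 14.2% of all genes called higher in iNP and in iSP. Those higher in iSP included Meox1 and Hoxc11. The list holds the sort marker Itga8. In the ex-fetu cells 22 members were called higher in NP at E11.5 and 21 at E12.5, none in SP, with medians of 1.98 and 2.10. Of the 18 members in the reference set, 12 were kept, 5 were lost and 1 was opposite, a kept share near the 65.9% of all NP-higher reference genes.

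The kept members included the core transcription factors. Pax2, a paired-box factor needed for the metanephric mesenchyme, had 210, 201, 303 and 281 normalised CPM in iNP and 14.1, 16.1, 19.1 and 6.99 in iSP. Uncx, a homeobox factor, had 185, 183, 207 and 200 in iNP and 13.6, 10.2, 12.2 and 7.81 in iSP. Among genes chosen for iNP and iSP libraries without overlap, Pax2 (log2 difference 4.11) and Uncx (4.05) headed those higher in iNP by size. That order depends on the added 1, which shrinks differences of genes near 0 in iSP. Across the alternatives the difference reached at most 4.27 for Pax2 and 4.16 for Uncx, but 6.78 for Sox10 and 5.86 for Wnt1. Sall1, a zinc finger factor of the progenitor pool, had 194, 119, 266 and 269 in iNP and 16.9, 16.2, 17.7 and 11.2 in iSP, with a log2 difference of 3.64 (limma adjusted p = 5.65e-06). Its mean of 15.5 in iSP was below the 60.3 and 198 of E11.5 and E12.5 SP, so the ES-derived gap was wider than the embryonic one.

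Gdnf, the ligand that draws out the ureteric bud, had 45.5, 32.9, 50.1 and 59.9 in iNP and 5.41, 8.13, 7.83 and 5.44 in iSP (log2 difference 2.63, limma adjusted p = 8.2e-06). At E11.5 it was called higher in NP with a smaller difference (means of 71.7 and 40.8, log2 difference 0.79), and at E12.5 the means were 79.8 in NP and 79.9 in SP. Eya1, a coactivator of SIX2, averaged 120 in iNP and 33.8 in iSP, against 396 and 5.56 in E12.5 NP and SP. Spock2, a matrix proteoglycan, averaged 66.3 and 14.6, against 940 and 11.5. For Spock2, as for Six2, the iNP level fell short of the embryo, and for Eya1 at E12.5 the iNP level was below NP and the iSP level above SP. At E11.5 the Eya1 mean of SP was 28.5, near that of iSP.

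The lost members were signals and early factors of the cap mesenchyme. Rspo1, a secreted amplifier of Wnt signals, had 16.2, 14.5, 19.4 and 20.2 in iNP and 13.5, 13.5, 18.3 and 11.6 in iSP. These ranges overlapped, and the log2 difference was 0.29. In the embryo the means were 119 in NP and 3.91 in SP at E11.5, and 136 and 1.05 at E12.5. The 2 ES-derived cell types thus lay between the embryonic extremes, with iNP far below NP and iSP above SP.

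Bmp7, a survival signal for nephron progenitors, had 132, 88.6, 125 and 137 in iNP and 152, 148, 165 and 143 in iSP. It was lower in every iNP library than in any iSP library, with a log2 difference of -0.35 that was not called. The iSP mean of 152 was close to the E11.5 and E12.5 NP means of 173 and 198, while E11.5 and E12.5 SP averaged 32.1 and 9.35. Osr1, an early marker of intermediate mesoderm, had 46.1, 34.4, 47.4 and 48.5 in iNP and 40.5, 28.9, 32.0 and 37.8 in iSP, which overlapped. E12.5 NP and SP averaged 114.8 and 6.72 for Osr1. Cited1, which marks the most undifferentiated cap cells, was low in both, at 2.95 in iNP and 2.30 in iSP, against 31.3 and 63.1 in E11.5 and E12.5 NP. The remaining lost member was Eya4. Fam160a1, a lost gene outside the list, averaged 5.49 in iNP and 3.40 in iSP, against 26.5 and 1.40 in E12.5 NP and SP, and was called (0.73) and so kept without iNP-2, and called (0.55) after upper-quartile scaling. Without iNP-2, the Rspo1 and Osr1 differences of 0.38 and 0.44 and the Bmp7 difference of -0.21 were called, Bmp7 then as opposite.

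Meox1, a homeobox factor also used in somites, was the opposite member, with 122, 121, 117 and 112 in iNP and 174, 175, 180 and 157 in iSP. E11.5 NP and SP averaged 65.3 and 16.3. In a fit of all 36 libraries its call was lost.

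Across the whole reference set, the opposite NP-higher genes with the largest embryonic differences included Lmx1b, a LIM homeobox factor, and Capn6, a calpain without known protease activity. Lmx1b had 6.26, 4.56, 8 and 8.56 in iNP and 9.23, 12, 12.3 and 10 in iSP, while E11.5 NP and SP averaged 93.7 and 2.75. Capn6 had 393, 169, 381 and 414 in iNP and 663, 552, 571 and 702 in iSP, while E12.5 NP and SP averaged 954 and 85.7. Neither gene overlapped between iNP and iSP, and for both the iSP level stood above the embryonic SP level. The call of Lmx1b was lost without iNP-1, iSP-2 or iSP-3, with the replicate block and in a fit of all 36 libraries. That of Capn6 was lost without iSP-1 or iSP-4. Hoxd12, a posterior homeobox gene, and Sncaip, a synuclein partner, were in the same class, with 11 and 45.4 in iNP and 23.7 and 69.3 in iSP. In a fit of all 36 libraries the call of Sncaip was lost.

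Genes of the differentiating nephron, which mark cells that have left the progenitor pool for the renal vesicle, were higher in iNP as a group. Of 12 tested members 11 were called higher in iNP and 1 higher in iSP (median 3.06), beside 16.5% and 14.2% of all genes. At E11.5 4 were higher in NP and 3 in SP (median 0.21), beside 21% and 22.2% of all genes. At E12.5 these were 7 and 1 (median 1.41), beside 17% and 17.8%. The members' summed level was 1224 to 1481 in the iNP libraries and 191 to 255 in the iSP libraries.

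Lhx1, a LIM homeobox factor of the renal vesicle, had 55.4, 23.1, 57.6 and 60.4 in iNP and 5.32, 3.55, 4.73 and 3.21 in iSP. Its E11.5 NP mean was 3.70 and its E12.5 NP mean 28.4, so the iNP mean of 49.1 lay above both, while iNP-2 lay below the latter. Jag1, a Notch ligand of the early nephron, had 203, 144, 226 and 221 in iNP and 25, 24.5, 25.2 and 18 in iSP (log2 difference 3.04, limma adjusted p = 1.28e-06). In the embryo Jag1 separated the lineages little, at 48.2 and 56.7 in E11.5 NP and SP and 91.9 and 70.3 at E12.5. Ccnd1, the cell cycle regulator cyclin D1, which is upregulated in the renal vesicle, had 584, 542, 618 and 622 in iNP and 156, 92.1, 115.03 and 116 in iSP. It averaged 346 and 350 in E12.5 NP and SP, and was called higher in SP at E11.5, at 138 in NP and 213 in SP (log2 difference -0.62). Of its exon length, 23.4% is shared with LTO1 on the other strand, which averaged 25.8 in iNP and 23.2 in iSP.

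Pax8, a paired-box factor of the forming nephron, averaged 189 in iNP and 11.5 in iSP, against 31.2 in E11.5 NP and 107 in E12.5 NP. Dll1, another Notch ligand, averaged 66.3 in iNP and 4.73 in iSP, against 11.5 and 1.64 in E12.5 NP and SP (0.998 in SP without E12.5 SP-1), and 20.5% of its exon length is shared with A930024N18Rik on the other strand. Wnt4, the signal that drives epithelial conversion, was close to the embryonic level, with 132, 214, 155 and 148 in iNP, 17.3, 19.4, 18.2 and 12.5 in iSP, and means of 144 and 20.6 in E12.5 NP and SP. iNP-2 had the highest Wnt4 value and the lowest Lhx1 and Jag1 values of the iNP libraries. In bulk libraries, more cells of a type and more RNA per cell cannot be told apart.

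The stromal progenitor identity list kept its direction in most members. Of 25 tested members, 19 were called higher in iSP, 3 higher in iNP and 3 were not called, beside 14.2% and 16.5% of all genes. The median difference was -1.37, and the list holds the sort marker Pdgfra. In ex-fetu cells 24 were called higher in SP at E11.5 and 23 at E12.5, none in NP, with medians of -1.99 and -3.27. Of the 23 in the reference set, 17 were kept, 2 lost, 3 opposite and 1 undecided, beside 43.3% of all SP-higher reference genes kept. The summed level of the list was 7804 to 8179 in iSP and 1925 to 2700 in iNP, against 9560 to 15381 in E12.5 SP.

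Twist1, a mesenchymal helix-loop-helix factor, had 334, 266, 258 and 292 in iSP and 32.3, 32.4, 26.1 and 23.3 in iNP (log2 difference -3.30, limma adjusted p = 3.6e-07), and averaged 86.0 in E12.5 SP. All its iSP libraries lay above all its iNP libraries, and the stromal level was above the embryonic one. Hic1, a transcriptional repressor of mesenchymal progenitors, had 185, 190, 229 and 169 in iSP and 28.9, 19.9, 22.2 and 19.3 in iNP, without overlap, against a mean of 517 in E12.5 SP. Tbx18, a T-box factor of the mesenchyme around the ureter, was kept but lower, at 16.4 in iSP and 5.30 in iNP, against 104 in E11.5 SP, with 20.6% of its exon length shared with D030062O11Rik on the other strand.

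The opposite members carried stromal functions in the embryo. Aldh1a2, the enzyme that makes retinoic acid, had 291, 274, 269 and 290 in iNP and 182, 176, 179 and 165 in iSP. No iNP library overlapped with iSP, and the log2 difference was 0.68 (limma adjusted p = 7.52e-05). In the embryo it averaged 220 in NP and 759 in SP at E11.5, and 252 and 1202 at E12.5. The iNP level was thus near that of ex-fetu NP, and the iSP level below it. Tcf21, a helix-loop-helix factor of kidney mesenchyme, averaged 37.2 in iNP and 18.6 in iSP (log2 difference 0.97, limma adjusted p = 0.000269), against 41.1 and 90.3 in E12.5 NP and SP. Both calls were lost in a fit of all 36 libraries.

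Postn, which encodes the matrix protein periostin, had 35.6, 19.6, 33.0 and 33.6 in iNP and 6.14, 6.81, 8.38 and 7.10 in iSP, against means of 6.06 and 168 in E12.5 NP and SP. The lost members of the list were Smoc2, a matricellular calcium binding protein, and Zeb2, a mesenchymal repressor. Smoc2 averaged 5.44 in iNP and 5.09 in iSP (log2 difference 0.08, limma adjusted p = 0.672), against 67.6 in E12.5 SP. Zeb2 averaged 48.6 and 41.6 (log2 difference 0.17, limma adjusted p = 0.706), against 222 in E12.5 SP. Without iNP-2 the Zeb2 difference was 0.47 and was called, which made it opposite.

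**Figure D4:**
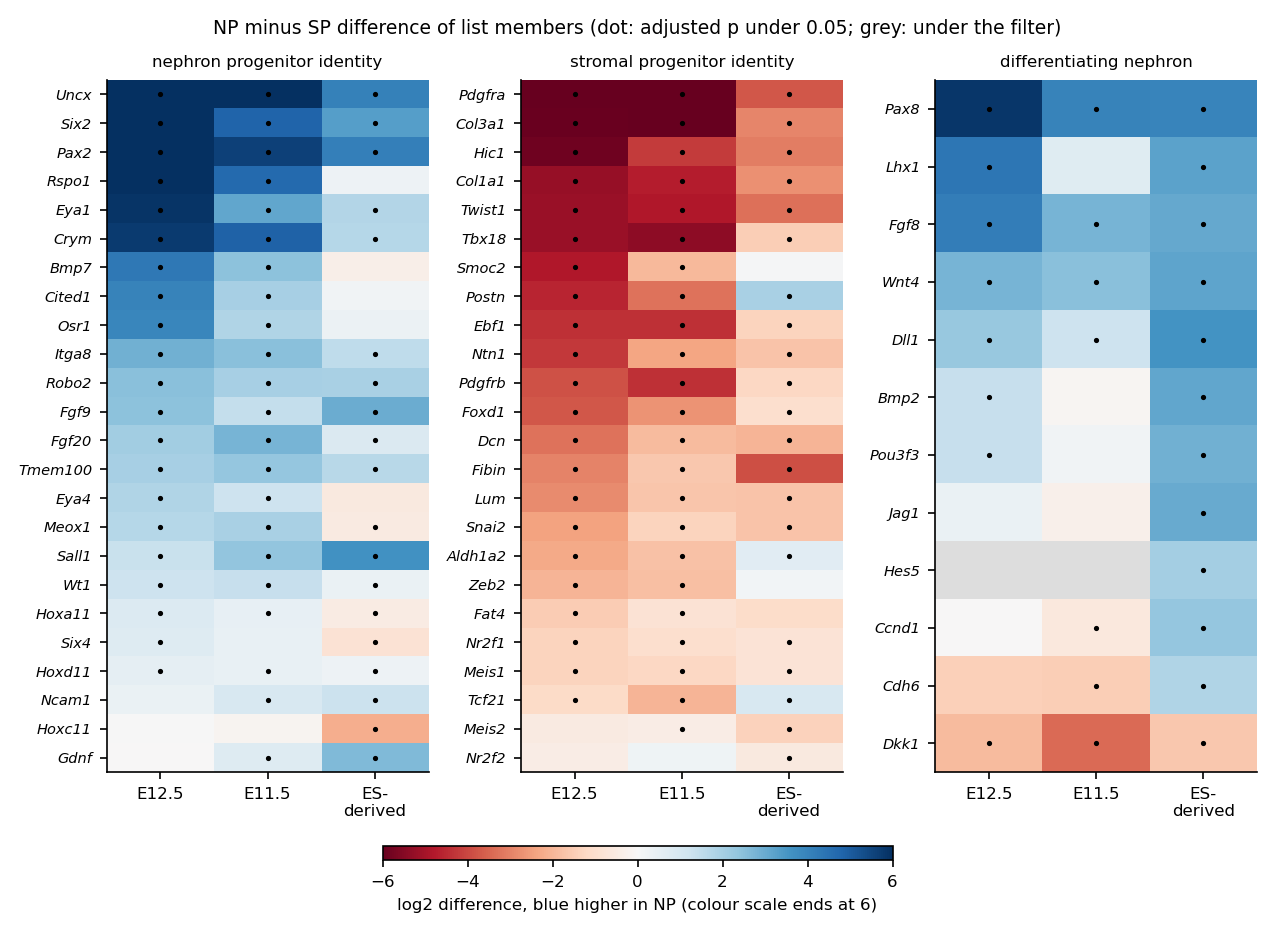
Heat maps of the NP minus SP log2 difference (colour, blue higher in NP and red higher in SP) at E12.5, at E11.5 and between iNP and iSP (columns), for members of the nephron progenitor identity, stromal progenitor identity and differentiating nephron lists (rows); a dot marks an adjusted p under 0.05, and grey a gene under the filter. Rspo1, Osr1 and Cited1 are blue in both embryonic columns and near white in the ES-derived one, Postn, Aldh1a2 and Tcf21 turn from red to blue, and Jag1 and Ccnd1 are called higher in NP in the ES-derived column only.

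Matrix genes of the stroma were kept in part. Of 41 tested collagens and matrix genes, 18 were called higher in iSP, 14 higher in iNP and 9 not (median -0.48), beside 14.2% and 16.5% of all genes. The embryo had 29 higher in SP and 4 in NP at E11.5 (median -1.75), beside 22.2% and 21% of all genes. At E12.5 it had 28 and 4 (median -2.03), beside 17.8% and 17%. Of the 25 SP-higher members in the reference set 16 were kept, 6 lost, 2 opposite and 1 undecided, beside 43.3% kept of all SP-higher reference genes. The 4 NP-higher members were all kept, beside 65.9% of all NP-higher ones.

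The fibrillar collagen gene Col3a1 had 2211, 2168, 2269 and 2172 in iSP and 397, 231, 301 and 264 in iNP. The iSP mean of 2205 was close to the 2025 of E12.5 SP, while the iNP mean of 298 was above the 37.4 of E12.5 NP (23.6 without E12.5 NP-1). Col1a1, its partner in fibrils, averaged 715 in iSP and 109 in iNP, against 3263 and 85.1 in E12.5 SP and NP. Col6a3, a chain of microfibrillar collagen, averaged 72.2 in iSP and 8.85 in iNP, against 285 in E12.5 SP.

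Col12a1, a fibril-associated collagen, was lost: it had 55.1, 18.6, 64.5 and 64.0 in iNP and 36.3, 51.0, 57.0 and 40.8 in iSP, where iNP-2 was the lowest and the other iNP libraries overlapped with iSP. Its log2 difference of -0.00 became 0.42 without iNP-2, which was called and made it opposite, and E12.5 NP and SP averaged 20.5 and 430. Ecm1, an extracellular matrix glycoprotein, was among the opposite genes with the largest embryonic differences, with 129, 118, 137 and 111 in iNP and 31.6, 45.1, 43.7 and 29.7 in iSP against 5.38 (2.74 without E12.5 NP-1) and 122 in E12.5 NP and SP. Col14a1, another fibril-associated collagen, averaged 261 in iNP and 55.4 in iSP, where ex-fetu means reached at most 31.6. At E12.5 it was called higher in SP, at 15.6 in NP and 31.6 in SP (log2 difference -0.97), and at E11.5 it was not called. The basement membrane genes Lama5, Lamc1 and Frem2 were each called higher in iNP, at 93.8 against 17.8, 525 against 192 and 321 against 29.6; they were named after their values were seen.

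Other opposite SP-higher genes with large E12.5 differences were the cell surface genes Ntm, Lsamp and Thy1. Ntm had 16.1, 13.6, 16.8 and 16.2 in iNP and 8.55, 6.84, 7.09 and 7.37 in iSP, without overlap, against 1.40 and 61.1 in E12.5 NP and SP. Lsamp averaged 6.89 in iNP and 1.80 in iSP, and Thy1 1.76 and 0.644. Thy1 was lost and not opposite in 7 of 34 alternatives, which included each iNP library left out. Among the largest SP-higher differences that were lost, the globins Hbb-y and Hba-x had no reads in any ES-derived library, while E12.5 SP libraries held 207 to 2080 and 33.5 to 433. Markers of erythroid cells summed to 300 to 2849 in the E12.5 SP libraries and to at most 3.02 in the ES-derived ones. The part of blood cells in the E12.5 SP differences was not tested. Col6a6 and Adamts18, a collagen chain and a secreted protease, were low in both ES-derived groups, with means of at most 3.69, against 71.1 and 65.7 in E12.5 SP.

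Signals and receptors of the exchange between the lineages were kept in part. In the retinoic acid list 6 of 16 tested genes were higher in iNP, 8 higher in iSP and 2 not called, beside 16.5% and 14.2% of all genes. Of its 8 SP-higher reference genes 6 were kept, where 43.3% of all such genes were. Rarg, a retinoic acid receptor, averaged 187 in iSP and 24.2 in iNP, against 119 and 5.10 in E12.5 SP and NP. Crabp1, the cellular binding protein, averaged 795 and 186, against 389 and 7.15. The synthesis gene Aldh1a2 therefore ran opposite to the embryo while receptor and binding protein did not.

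In the Wnt list 16 of 32 tested genes were higher in iNP, 10 higher in iSP and 6 not called (median 0.40), beside 16.5% and 14.2% of all genes. At E11.5 7 were higher in NP and 20 in SP (median -0.73), beside 21% and 22.2% of all genes. At E12.5 these were 10 and 13 (median -0.23), beside 17% and 17.8%. Sfrp1, a secreted Wnt antagonist, averaged 495 in iSP and 76.8 in iNP, against 369 and 35.0 in E12.5 SP and NP. Wnt5a, a ligand of the non-canonical branch, averaged 68.7 in iSP and 24.0 in iNP. Wnt11, which the embryo expresses at the bud tip, averaged 36.2 in iSP and 6.75 in iNP and was kept. It was higher in SP at E12.5 too, at 58.1 in SP and 4.25 in NP without the libraries numbered 1.

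Notch genes leaned to iNP, with 14 of 20 called higher there, 2 higher in iSP and 4 not called (median 0.96), beside 16.5% and 14.2% of all genes. All 6 NP-higher reference genes were kept, where the share over all such genes was 65.9%. At E11.5 and E12.5, 6 and 7 members were higher in NP, beside 21% and 17% of all genes, and 5 and 2 higher in SP, beside 22.2% and 17.8%. Hes5, a Notch target, averaged 4.51 in iNP and 0.289 in iSP, and 31.8% of its exon length is shared with Gm20421 on the other strand. Nrarp, a feedback regulator of Notch, averaged 29.5 and 3.53, with 79.4% of its exon length shared with Gm38287 on the other strand.

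The Gdnf and Ret list had 9 of 16 higher in iNP, 2 higher in iSP and 5 not called, beside 16.5% and 14.2% of all genes. Gfra1, the GDNF co-receptor, averaged 70.1 in iNP and 9.79 in iSP, against 185 and 11 in E12.5 NP and SP. Robo2, the guidance receptor that restricts Gdnf, averaged 95.9 and 22.3, against 507 and 90.3. Fgf genes had 9 of 13 higher in iNP and 1 higher in iSP, and all 4 NP-higher reference genes were kept, beside 65.9% of all NP-higher reference genes. Fgf9, a renewal signal for nephron progenitors, averaged 21.2 in iNP and 1.83 in iSP; FGF9 protein was also an ingredient of the culture medium.

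Of 11 tested hedgehog genes 3 were called higher in iNP, 5 higher in iSP and 3 not, beside 16.5% and 14.2% of all genes. Gli1, a direct hedgehog target, had 1.76, 1.18, 1.14 and 1.78 in iNP and 0.676, 1.58, 0.997 and 1.66 in iSP. These overlapped (log2 difference 0.16, limma adjusted p = 0.522), while E12.5 NP and SP averaged 20.4 and 154. Gli2, a hedgehog effector, was kept, at 126 in iSP and 30.2 in iNP, and iNP-2 was its lowest iNP library at 12.8. Gas1, a hedgehog co-receptor, averaged 328 in iNP and 585 in iSP (log2 difference -0.84), opposite to the 707 and 312 in E12.5 NP and SP. In the Bmp list 10 of 27 were higher in iNP, 7 higher in iSP and 10 not called. Fst, which encodes the activin and BMP binding protein follistatin, had 13.4, 13.5, 12 and 13.2 in iNP and 0.725, 0.895, 0.369 and 0.574 in iSP, against 13.2 and 28.9 in E12.5 NP and SP. It stayed opposite in 22 of 34 alternatives and was lost or outside the reference set in the others.

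**Figure D5:**
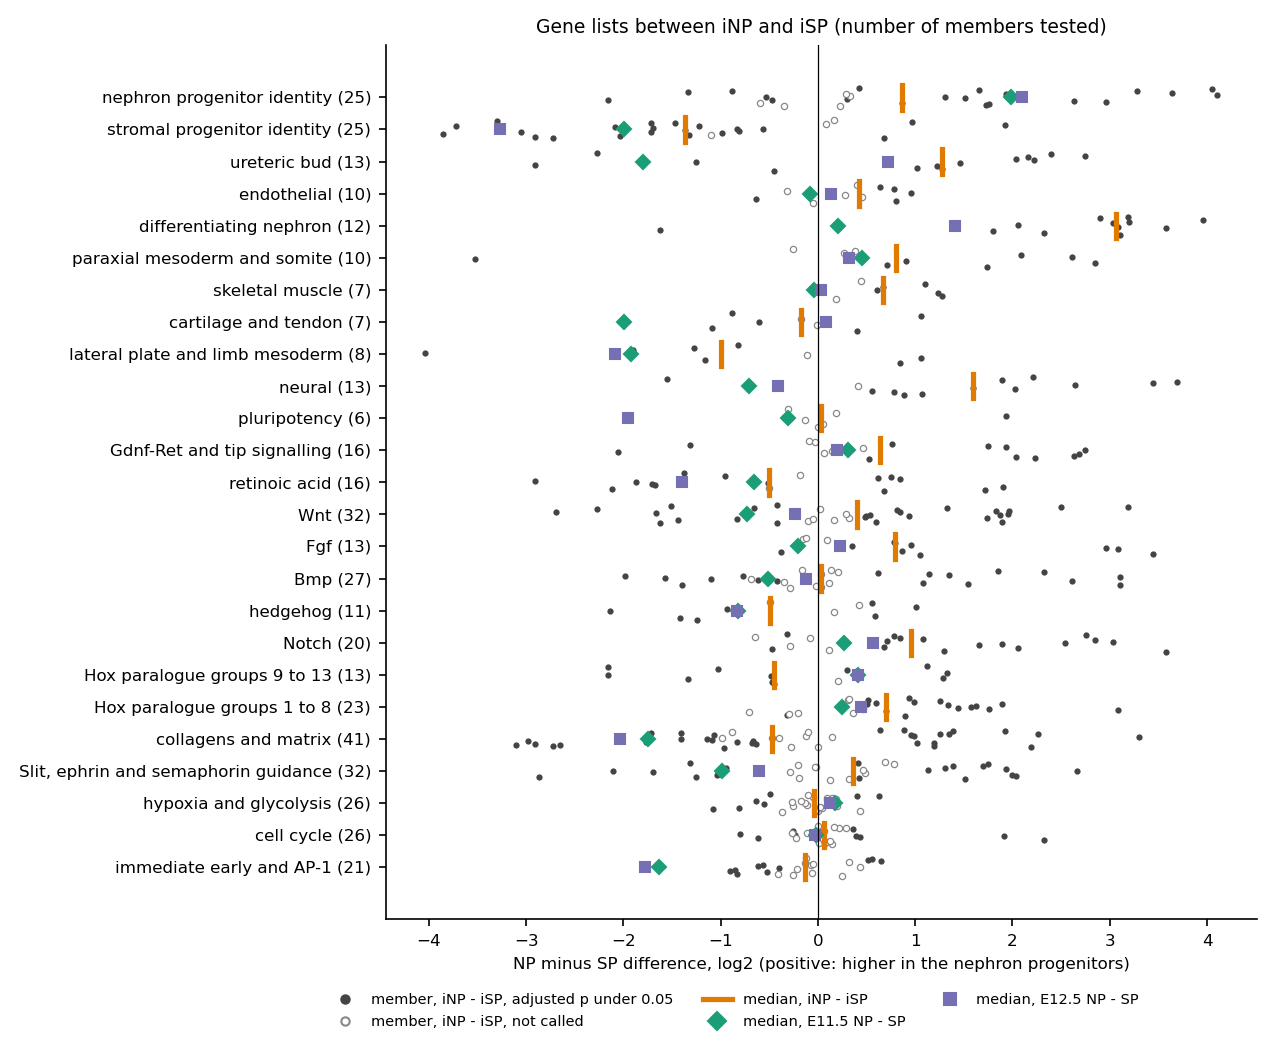
Log2 difference of iNP minus iSP (horizontal axis) for each tested member of the gene lists (rows, with the number of members tested; filled points are called, open ones are not), with the list's median between iNP and iSP (orange bar), at E11.5 (diamond) and at E12.5 (square). The differentiating nephron members lie mostly right of 0 with a median of 3.06, the stromal identity members mostly left of 0 with a median of -1.37, and the cell cycle median is 0.06.

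Hox genes, which place cells along the body axis, differed between iNP and iSP in both the anterior and the posterior paralogue groups. Of 23 tested genes of groups 1 to 8, 15 were called higher in iNP, 1 higher in iSP and 7 not (median 0.70), beside 16.5% and 14.2% of all genes. Of the 9 NP-higher reference genes 8 were kept, where 65.9% of all such genes were. Hoxb8 averaged 97.1 in iNP and 25.1 in iSP, against 70.9 and 7.47 in E12.5 NP and SP, and Hoxb1 18.3 and 1.26, against 5.83 and 0.203. Of 13 tested genes of groups 9 to 13, 4 were higher in iNP, 7 higher in iSP and 2 not called (median -0.45). Hoxc11 had 14.5, 19.2, 13.3 and 12.7 in iNP and 78.8, 65.1, 69.1 and 64.7 in iSP. At E12.5 it averaged 33.4 in NP and 32.5 in SP, so the ES-derived difference had no counterpart there. Hoxd13 averaged 4.30 in iNP and 22.6 in iSP.

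Some differences called between iNP and iSP were not called in the embryo, where a gene too low to be tested counts as not called. Of the 851 large differences toward iNP, 316 (37.1%) were called in the same direction at both embryonic stages, 141 at 1 stage only and 223 (26.2%) at neither stage in either direction, while 74 were called in the other direction at both. Of the 471 toward iSP, 289 (61.4%) were called in the same direction at both stages, 72 at 1 and 90 (19.1%) at neither, while 5 were called in the other direction at both. For 208 of the 223 and 65 of the 90, the change against E11.5 was called as well. These counts use the E12.5 fit without the replicate block. With the block, whose E12.5 pairs come from the data and not from the labels, the genes called at neither stage were 194 (22.8%) toward iNP and 68 (14.4%) toward iSP. Of these, 180 and 52 had a called change, and the genes called in the other direction at both stages were 92 and 8.

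Some of these genes are known from the nervous system. Sox2, a neural and pluripotency factor, had 28.2, 36.5, 27.9 and 26.2 in iNP and 1.79, 1.54, 1.18 and 0.980 in iSP, with ex-fetu means of at most 0.463. Zic2, a zinc finger factor of the dorsal neural tube, had 29.4, 32.8, 34.2 and 30.4 in iNP and 2.66, 1.93, 1.55 and 2.06 in iSP. Sox10, a neural crest factor, averaged 11.1 in iNP and 0.110 in iSP, and Wnt1, a signal of the dorsal neural tube, 10.8 and 0.185. Fgf15, which is expressed in the embryonic brain and gut, averaged 14.4 in iNP and 0.433 in iSP, and 24.9% of its exon length is shared with Gm26793 on the other strand. It was too low to be tested in ex-fetu cells, where E12.5 NP and SP averaged 0.723 and 0.103.

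On the neural marker list as a whole, 11 of 13 tested genes were called higher in iNP and 1 higher in iSP (median 1.59), beside 16.5% and 14.2% of all genes. The summed level of the list was 304 to 328 in iNP and 215 to 227 in iSP, and 13 of its 14 genes had a mean of at least 1 in iNP against 6 in iSP, 7 in E11.5 NP, 5 in E11.5 SP, 3 in E12.5 NP and 4 in E12.5 SP. In the embryo the sum was 299 to 409 in E11.5 NP, 388 to 580 in E11.5 SP, 180 to 415 in E12.5 NP and 303 to 529 in E12.5 SP. Pax3, a paired-box factor of dorsal neural tube and somites, averaged 17.5 in iNP and 2.05 in iSP. Skeletal muscle genes had 5 of 7 called higher in iNP, with sums of 234 to 270 in iNP and 98.9 to 110 in iSP. The sums were also higher on the nephron side of the embryo, at 270 to 314 in E11.5 NP and 196 to 231 in E11.5 SP, and at 198 to 223 and 88.2 to 166 at E12.5. Paraxial mesoderm genes had 6 of 10 higher in iNP and 1 higher in iSP, with sums of 236 to 275 in iNP and 144 to 168 in iSP. Their sums were above both in the embryo, at 593 to 654 in E11.5 NP, 431 to 609 in E11.5 SP, 632 to 663 in E12.5 NP and 454 to 607 in E12.5 SP. The part of other cells in the iNP and iSP differences was not tested.

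Toward iSP, some of the largest differences and of those without an embryonic counterpart were in genes known from limb and body wall mesoderm. Prrx1, a homeobox factor of limb mesenchyme, had 648, 545, 576 and 715 in iSP and 53.3, 26.5, 35.8 and 35.8 in iNP, against 90.7 and 50.2 in E12.5 SP and NP. At E11.5 its difference also ran toward SP but was smaller (change of -2.43 on the log2 scale). Mab21l2, which acts in eye and body wall development, had 34.5, 24.2, 23.8 and 39.5 in iSP and 1.44, 0.853, 0.732 and 0.660 in iNP, with ex-fetu means of at most 0.0995. It lies within Lrba on the other strand, which shares 36.0% of its exon length and averaged 50.0 in iNP and 44.5 in iSP. Lhx2, a LIM homeobox factor of limb and forebrain, had 85.5, 81.8, 81.5 and 96.5 in iSP and 10.5, 8.23, 9.84 and 9.33 in iNP, with ex-fetu means of at most 0.561.

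The lateral plate and limb list had 5 of 8 tested genes called higher in iSP, 2 higher in iNP and 1 not (median -0.99), beside 14.2% and 16.5% of all genes. Its sums were 717 to 875 in iSP and 89.5 to 119 in iNP. The embryo had the same lean, with 6 of 7 tested genes called higher in SP at E11.5 (median -1.92) and 2 of 3 at E12.5 (median -2.08), beside 22.2% and 17.8% of all genes. The sums were 300 to 650 in E11.5 SP and 74.8 to 112 in E11.5 NP. Pax1, a paired-box factor of sclerotome and shoulder girdle, averaged 27.3 in iSP and 1.46 in iNP. Emx2, a homeobox factor of the urogenital epithelium and limb girdle, had 121, 134, 140 and 124 in iSP and 19.8, 12.8, 17.0 and 16.5 in iNP, while it averaged 0.473 in NP and 6.31 in SP at E11.5 and 5.30 and 0.439 at E12.5, so the 2 stages ran in different directions. Ddr2, a collagen receptor, and Rxfp2, a relaxin family receptor, headed the iSP side on the log2(value + 1) scale, at 281 and 38.4 in iSP and 14.1 and 1.02 in iNP. Both were also higher in ex-fetu SP, with E12.5 means of 218 and 17.0.

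Transcripts of cell types that the sort gated out were also measured. Ret, the GDNF receptor of the bud, averaged 8.86 in iNP and 0.476 in iSP, and Epcam, an epithelial adhesion gene, 26.2 and 8.85. Of 13 tested ureteric bud genes 9 were called higher in iNP and 4 higher in iSP, beside 16.5% and 14.2% of all genes. Their summed level, however, was lower in iNP, at 134 to 145, than in iSP, at 208 to 225, a sum that held the 130 of Emx2. In the embryo none of 12 was called higher in NP and 10 were higher in SP at E11.5, beside 21% and 22.2% of all genes. At E12.5 4 of 10 were higher in NP and 2 in SP, beside 17% and 17.8%. The sums were 48.0 to 64.5 in E11.5 NP, 155 to 351 in E11.5 SP, 34.0 to 125 in E12.5 NP and 87.9 to 120 in E12.5 SP. Krt8, an epithelial keratin, averaged 10.9 in iNP and 1.70 in iSP. Of 10 endothelial genes 4 were higher in iNP and 1 higher in iSP, and Kdr, a VEGF receptor also present in early mesoderm, averaged 30.0 and 14.9. Macrophage markers summed to at most 3.51 in either group, with 4 of 10 at 0 in each.

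The cell cycle and glycolysis lists had medians near 0, and the shares of them called lay near the 30.7% of all genes. Of 26 cell cycle genes 5 were called higher in iNP and 4 higher in iSP (median 0.06), and of 26 hypoxia and glycolysis genes 2 and 5 (median -0.04). Of the 6 tested members of the pluripotency list, which does not hold Sox2, only Lin28a was called, at 81.3 in iNP and 20.6 in iSP, against 11.1 and 1.04 in E11.5 and E12.5 NP. Immediate early genes, which respond to handling and growth factors, were called higher in SP in 21 of 23 cases at E11.5 and in 11 of 23 at E12.5, where the other 12 were not called, beside 22.2% and 17.8% of all genes. Between iNP and iSP 3 were higher in iNP, 7 higher in iSP and 11 not called (median -0.14), and 7 of the 11 SP-higher reference genes of this list were lost, beside 29.2% of all such genes. Egr1 was kept, at 539 in iSP and 306 in iNP, but its call was lost in a fit of all 36 libraries. Klf6 was lost, at 20.7 in iSP and 26.3 in iNP against 241 and 47.4 in E12.5 SP and NP (26.7 in NP without E12.5 NP-1). It was called higher in iNP without iNP-2 (0.43) and after quantile normalisation (0.32) or upper-quartile scaling (0.35). At E11.5 the heat shock genes Hspa1a and Hspa1b summed to 36.8 to 90.9 in NP libraries and 242 to 353 in SP libraries, and to at most 3.94 in any ES-derived library. The part of handling in the embryonic differences was not tested.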

How the data were processed

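RNA of sorted cells was sequenced with a stranded mRNA kit; the submitters' processing notes name STAR and cutadapt, and whether counting used strand is not given in the sources used here. The labels name a human build, but 22642 of 22761 gene identifiers (99.48%) were found in GENCODE vM21, whose GRCm38 positions and exon overlaps were used. The deposited values are a signal per gene: the authors scaled reads by library size and edgeR normalisation factors, giving normalised CPM. Whole reads were recovered for every value within 0.01 and served for depth and for edgeR. A second table with the authors' own fold changes, p-values and false discovery rates was not used. Every library has a column, and replicate libraries of a group differed by more than counting error.

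Genes that reached 1 in 4 or more of the libraries compared were fitted on log2(value + 1) with limma 3.58.1 in R 4.3.3 (lmFit, eBayes with trend, Benjamini-Hochberg adjustment), the method tested on simulated data. The change of the difference was the interaction (iNP - iSP) - (E11.5 NP - E11.5 SP). The alternatives were edgeR 4.0.16 (quasi-likelihood, TMM), a pseudocount of 0.1, other filters, scalings and fits, a replicate block, each library left out in turn, and other definitions of the reference set. Same-numbered E12.5 NP and SP libraries deviated together (r = 0.54 to 0.70), which pairs them by the data, not by the labels.

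Gene lists and members were chosen with earlier results of these data known. Genes named outside the lists were the 8 largest iNP versus iSP differences in each direction without overlap, the 5 largest E12.5 differences in each class and direction, and the 5 largest per direction called at neither embryonic stage, each with a higher group mean of at least 10. These are descriptions without a test, and clones, pseudogenes and ribosomal or mitochondrial genes were left out of them. Some genes that these rules or lists name are not reported here. Exact permutation of 4 against 4 libraries cannot give a two-sided p below 0.0286. The p-values cover differences between batches of 1 ES line and between litters of 1 stock.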

Additional observations from a re-analysis of the deposited data

Results flagged for a closer look

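A library stood far from the other libraries of its group for 17 of the 204 checks made over the named genes, where chance gives about 1 in 20. In 11 of these the library was iNP-2. It was the lowest iNP library for Capn6 (169), Col14a1 (174), Col6a6 (1.25), Egr1 (200), Fam160a1 (3.18), Gli2 (12.8), Itga8 (75.5), Lhx1 (23.1), Osr1 (34.4) and Postn (19.6), and the highest for Hes5 (7.15), all in normalised CPM. The other libraries that stood apart were iNP-1 for Hba-a1 (0.0703) and Hoxd13 (5.38), and, among the iSP libraries, iSP-1 for Gpx6 (2.37), iSP-2 for Ret (1.07), iSP-3 for Klf6 (18.1) and iSP-4 for Jag1 (18).

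The NP minus SP difference changed between ES-derived and E11.5 cells, by the interaction in limma, for 83 of the named genes. Values are the log2 difference of iNP and iSP minus that of E11.5 NP and SP, so a negative value is a shift toward the stromal side. Among NP-higher genes that were kept, the iNP versus iSP difference was smaller than at E11.5 for Crym (-3.14), Spock2 (-3.10), Uncx (-2.49), Six2 (-1.54), Pax2 (-1.49) and Eya1 (-1.37). It was shifted toward iNP for Sall1 (1.29), Fgf9 (1.55), Car4 (1.57), Frem2 (1.95), Nrarp (2.29), Dll1 (2.36), Lhx1 (2.49) and Krt8 (3.22). The lost NP-higher genes were Rspo1 (-4.36), Bmp7 (-2.81), Fam160a1 (-2.28), Cited1 (-1.79) and Osr1 (-1.46), and the opposite ones were Lmx1b (-5.49), Capn6 (-3.79), Gas1 (-2.68), Meox1 (-2.46), Sncaip (-1.87) and Hoxd12 (-1.47).

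Kept SP-higher genes shifted toward the stromal side were Pax1 (-2.66), Fibin (-2.22) and Rxfp2 (-2.17). Those shifted away from it were Hic1 (1.12), Wnt11 (1.35), Rarg (1.41), Twist1 (1.51), Egr1 (1.54), Foxd1 (1.70), Ddr2 (1.79), Col1a1 (1.97), Hoxd13 (2.03), Crabp1 (2.88), Pdgfra (2.90), Col3a1 (3.30), Gata6 (3.62) and Tbx18 (3.88). The lost ones were Zeb2 (1.96), Smoc2 (2.02), Col6a6 (2.07), Klf6 (2.31), Hba-a1 (2.76), Gli1 (2.83), Hba-x (3.49), Col12a1 (3.71), Hbb-y (3.83) and Adamts18 (4.95). The opposite ones were Aldh1a2 (2.43), Tcf21 (3.03), Fst (3.85), Thy1 (4.39), Lsamp (4.43), Ntm (4.79), Postn (5.17) and Ecm1 (6.37).

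Of the named genes outside the reference set, shifts toward iSP were found for Mab21l2 (-3.93), Rspo4 (-2.99), Lhx2 (-2.89), Glis1 (-2.45), Prrx1 (-2.43) and Hoxc11 (-2.0). Shifts toward iNP were found for Myog (0.82), Lamc1 (1.22), Kdr (1.38), Gdnf (1.84), Hes5 (1.98), Epcam (2.0), Col14a1 (2.07), Hspa1a (2.13), Pax3 (2.21), Sox10 (2.35), Ccnd1 (2.94), Zic2 (3.07), Wnt1 (3.27), Jag1 (3.32), Sox2 (3.42), Fgf15 (3.66) and Ret (4.59).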

How the results depend on the processing

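Testing iNP against iSP for a log2 difference above 1 (limma treat) left 553 genes, and the replicate block raised the E12.5 count to 7961. With the block the iNP versus iSP count was 3607, that of E11.5 5980 and that of the change 4223; in these the numbers do not pair the libraries, as their correlations ran from -0.29 to 0.30 for iNP and iSP and from -0.35 to 0.51 at E11.5. Among named genes the block ended the call of Lmx1b. With no minimum size for the reference set, 40.7% of the NP-higher and 37.1% of the SP-higher genes were kept, and without iNP-2 and both E12.5 libraries numbered 1, a choice made after seeing the data, 21.1% of the SP-higher genes were opposite. Leaving out 1 library gave 3281 to 5983 genes for iNP versus iSP, 4534 to 6201 at E11.5, 3468 to 4786 at E12.5 and 3765 to 5019 for the change. The NP-higher genes were then 55.1% to 69.7% kept, 12.5% to 22.0% lost and 2.56% to 4.43% opposite, and the SP-higher genes 35.8% to 47.7%, 21.9% to 33.5% and 10.5% to 17.9%. A library left out removes genes expressed in 1 cell type by construction, since 3 libraries cannot pass the filter; without iNP-1, iNP-3 or iNP-4, 55.8%, 55.2% and 55.1% of the NP-higher genes were kept.

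Of 97 named genes tested between iNP and iSP, 79 kept their call or lack of one, and the direction of each call, in each alternative that gave them a value, while the sign of an uncalled difference such as that of Smoc2 or Gli1 could change; 72 of them had a value in all 17, and low genes such as Hes5 and Sox10 did not. Col12a1, at -0.00, ranged from -0.17 to 0.42 with 1 library left out, the highest without iNP-2. The calls of Aldh1a2, Tcf21, Meox1, Sncaip, Egr1, Gata6, Kdr, Thy1 and Lmx1b were lost in the fit of all 36 libraries, Capn6 without iSP-1 (-0.92) or iSP-4 (-0.89), and Lmx1b also without iNP-1, iSP-2 or iSP-3. Col6a6 (-0.63) and Klf6 (0.32) were called after quantile normalisation, and Klf6 (0.35) and Fam160a1 (0.55) after upper-quartile scaling. iNP-2 also set the length relation of the differences: r across genes with log2 exon length was -0.13, and 0.006 without it. Depth limits statements on genes near 3 reads, such as Sox10 and Wnt1 in iSP.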

Other observations

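Axon guidance genes, which also position cells in other tissues, were split between iNP and iSP. Of 32 tested Slit, ephrin and semaphorin genes, 12 were called higher in iNP, 9 higher in iSP and 11 not (median 0.36), beside 16.5% and 14.2% of all genes. All 4 NP-higher members of the reference set were kept, and of the 13 SP-higher members 7 were kept, 2 lost, 3 opposite and 1 undecided. Over all reference genes the kept shares were 65.9% and 43.3%. Slit1, a secreted repellent that binds ROBO receptors, had 44.5, 28.8, 52.6 and 49.9 in iNP and 2.22, 1.90, 1.29 and 1.35 in iSP, close to the means of 48.8 and 1.30 in E11.5 NP and SP. Of 7 cartilage and tendon genes 2 were higher in iNP, 3 higher in iSP and 2 not called (median -0.17).

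Other genes among the largest differences toward iNP were the carbonic anhydrase Car4, at 30.6 in iNP and 1.19 in iSP, the glutathione peroxidase Gpx6, at 30.1 and 1.44, and Sel1l3, at 49.3 and 2.98. Toward iSP they were Bcl11a, a transcriptional repressor, at 102 in iSP and 6 in iNP, Fibin, a secreted protein, at 88.7 and 5.26, and Ebf2, a helix-loop-helix factor of mesenchyme, at 55.6 and 3.47. Bcl11a also separated SP from NP in the embryo, at 63.5 and 4.06 at E11.5. The Wnt amplifier Rspo4 and the zinc finger factor Glis1 differed between iSP and iNP, at 17.8 and 1.90 and at 30.3 and 3.42, and were called at neither embryonic stage.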
